A study of Sus scrofa with 6 samples.

Results

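The miR-29 family of microRNAs (miRNAs), small RNAs that silence messenger RNAs, was represented by ssc-miR-29a, ssc-miR-29b and ssc-miR-29c, 3 names taken from the 326 mature pig miRNAs measured by small RNA sequencing. They averaged 46.3, 15.6 and 46.7 reads per 1000000 (RPM) over all libraries, in that order, and are written without the prefix from here on. All 3 members had reads in every library and all 3 were among the 104 miRNAs with enough reads to test. The RNA came from denuded oocytes, freed of their cumulus cells, of prepubertal gilts. The LO group (n = 3 libraries) held oocytes of large follicles, 3 to 6 mm wide and emptied with a 20-gauge needle and a 10 mL syringe. The SO group (n = 3 libraries) held oocytes of small follicles, under 2 mm wide and emptied with a 23-gauge needle and a 5 mL syringe. Follicle size, needle and syringe therefore cannot be told apart. No treatment or genetic change was applied in either group, the libraries are called biological replicates, and the numbers of gilts and oocytes per library are not given in the sources used here. By its title, the study asks how miRNA levels relate to the competence of an oocyte to develop.

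miR-29 miRNAs repress messenger RNAs that hold matches to their seed, the bases near the 5′ end that pair first with a target. Their best known targets are the de novo DNA methyltransferases DNMT3A and DNMT3B, the TET enzymes that oxidise methylated cytosine, and collagens and other matrix proteins. DNA methylation is laid down anew in the oocyte as it grows, and the enzymes that do so are stored for the embryo. Neither target messenger RNAs nor DNA methylation were measured in these libraries, so the label of the family as a repressor of methyltransferases is background and was not tested.

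The mature sequences are shown as listed in the deposited tables, in DNA letters, because they show how few bases separate the members. Capitals mark the heptamer AGCACCA, the seed of the family.
miR-29a: ctAGCACCAtctgaaatcggtta
miR-29b: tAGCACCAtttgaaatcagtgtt
miR-29c: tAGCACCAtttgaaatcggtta
The heptamer lay at bases 2 to 8 of miR-29b and miR-29c and at bases 3 to 9 of miR-29a, which is listed with 1 extra base at its 5′ end. Read literally, bases 2 to 8 of the listed miR-29a are TAGCACC, which no other listed name carries there, and AGCACCA stood at bases 2 to 8 in 2 of the 326 names (0.613%). 1 more name, miR-218-3p, held AGCACCA from base 13, outside the seed, and had 0 reads in all libraries. Whether the reads counted as miR-29a began at the extra base was not tested.

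With the extra base of miR-29a set aside and positions counted from 1 at the 5′ end of miR-29c, miR-29a and miR-29c differed over 22 bases by the single substitution C10T (miR-29a first). miR-29c and miR-29b were identical over their first 17 bases and differed by 3 substitutions, G18A, T21G and A22T (miR-29c first), and miR-29b has 1 more base at its 3′ end. The next line marks in capitals the last 6 bases of miR-29b, AGTGTT, a hexamer known from human cells as a signal that carries miR-29b into the nucleus.
miR-29b: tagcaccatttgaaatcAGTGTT
The hexamer closed 2 of the 326 listed sequences (0.613%), miR-29b and miR-92b-5p, and was found anywhere on the listed strand in 6 (1.84%). No other listed name lay within 2 substitutions of any member over the first 20 bases. In the RefSeq gene table for pig, MIR29B-1 is the neighbour of MIR29A and MIR29B-2 the neighbour of MIR29C, and miR-29b is listed under a single name, so its reads cannot be assigned to either of its 2 genes.

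The first comparison was among the members. miR-29a and miR-29c were present at closely similar levels and miR-29b was about 3 times lower. Levels are RPM of the library total used by the authors, and as the mature forms have 22 or 23 bases a correction for length would hardly alter the order. By replicate number, the LO libraries had 95.5, 36.8 and 47.0 RPM of miR-29a. The SO libraries had 38.1, 31.8 and 28.8 RPM. LO replicate 1 was more than 2 times every other library, and the remaining 5 lay close together, with LO replicate 2 below SO replicate 1.

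miR-29c followed the same course, with LO libraries at 95.5, 34.7 and 44.9 RPM and SO libraries at 43.9, 31.3 and 30.2 RPM. Again LO replicate 1 was far above the rest, and LO replicate 2 lay below SO replicate 1. For miR-29b the LO libraries had 27.8, 6.50 and 20.4 RPM and the SO libraries 21.4, 10.4 and 6.86 RPM. Its groups overlapped widely, since LO replicate 2 was the lowest of all libraries and SO replicate 1 the second highest.

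**Figure D1:**
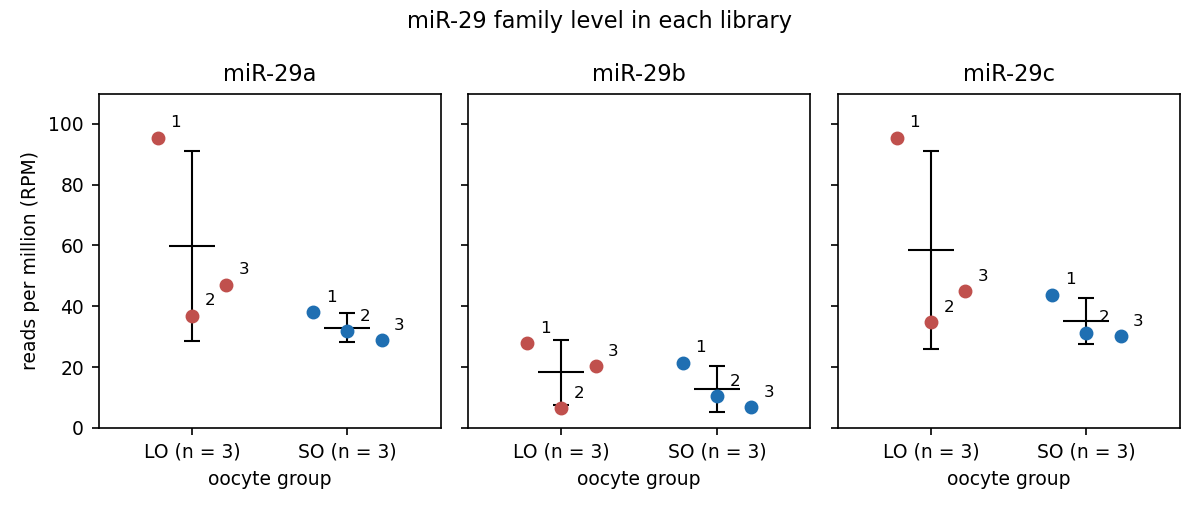
Level of miR-29a, miR-29b and miR-29c in RPM (vertical axis) in the 3 LO and 3 SO libraries; points are libraries numbered by replicate, horizontal lines the group means and bars 1 SD. LO replicate 1 is the highest point in every panel, at 95.5 RPM for both miR-29a and miR-29c, and the remaining LO and SO libraries overlap.

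These levels rest on few reads. miR-29a had 336 reads over the 6 libraries, miR-29c 345 and miR-29b 124, and single libraries ran from 17 to 73, from 16 to 84 and from 3 to 41 reads. The lowest count, 3 reads of miR-29b in LO replicate 2, equals the floor of 3 reads below which no level is read. By mean level over all libraries miR-29c ranked 46, miR-29a 47 and miR-29b 77 among the 104 tested miRNAs, in the middle and lower part of those tested. Among all 326 listed names, many with 0 reads, miR-29a and miR-29c ranked 38 to 51 and miR-29b 69 to 85 in the single libraries. Next in level were miR-361-5p at 51.6 RPM above miR-29c and let-7d-5p at 42.9 RPM below miR-29a, and miR-499-5p at 15.9 RPM and miR-339-5p at 14.8 RPM on either side of miR-29b, none of them far from its neighbour beside the spread between libraries.

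Within a library the members share depth and scaling, and their ratios were compared over the 6 libraries after adding 0.5 reads to each count. The log2 ratio of miR-29a to miR-29b was 1.62 ± 0.547 (SD, n = 6), a 3.07-fold difference, and it was positive in 6 of 6 libraries (exact two-sided sign-flip permutation p = 0.0313, the smallest that 6 libraries can give; 0.0469 adjusted over 3 pairs). The log2 ratio of miR-29c to miR-29b was 1.63 ± 0.495 (SD, n = 6; 6 of 6 libraries positive, exact permutation p = 0.0313, adjusted 0.0469). miR-29b was thus the lowest member in every library. Read numbers of different sequences are not calibrated against each other, so a ratio between members describes reads.

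The gap to miR-29b varied between libraries. miR-29a exceeded miR-29b 5.00-fold in LO replicate 2, where miR-29b had 3 reads, and 1.77-fold in SO replicate 1. The SD of that log2 ratio, 0.547, was not far above the 0.476 that counting error alone gives at these depths. LO replicate 2, with its 3 reads of miR-29b, adds the most to that 0.476, so counting error is smaller in the other libraries. miR-29b amounted to 18.2% of the reads of miR-29a and miR-29c together, between 9.09% in LO replicate 2 and 26.1% in SO replicate 1.

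miR-29a and miR-29c, by contrast, were level in every library. Reads of miR-29a and miR-29c numbered 55 and 55, 17 and 16, and 67 and 64 in the LO libraries by replicate number. They numbered 73 and 84, 61 and 60, and 63 and 66 in the SO libraries. Over all libraries miR-29a took 49.3% of the reads of the pair (95% exact Clopper-Pearson interval 45.5 to 53.2), and in each of the 6 libraries the interval of its share held an even split. The mean log2 ratio was -0.02 ± 0.105 (SD, n = 6; exact sign-flip permutation p = 0.813), with 3 of 6 libraries positive. The spread between libraries, 0.105, was smaller than the 0.308 that counting error gives if the reads of the names are independent.

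Because miR-29a and miR-29c differ by 1 base where they overlap, the other tested names that close were examined in the same way, a step chosen after the values were seen. There were 15 pairs of tested names within 1 substitution over the first 20 bases, and miR-29a with miR-29c lay nearest to an even split. Even splits were also found for miR-199a-3p, at 50.9% of its pair with miR-199b-3p, and for miR-9-1, at 46.5% of its pair with the identical miR-9-2. There the share ranged over 24.1 and 27.2 percentage points between libraries, against 5.02 for miR-29a. Those pairs had fewer reads (162 and 156, 106 and 122), and counting error widens such a range. The range was below 5.02 for let-7a with let-7e (3.02), miR-103 with miR-107 (3.45) and miR-146a-5p with miR-146b (4.21), all split unevenly. For let-7a with let-7f, at 60.4%, it was 9.41. For miR-99a with miR-100 (554 and 747 reads), at 42.6%, the range was 32.4. Pairs split less evenly included let-7a at 73.6% of its pair with let-7c and miR-30a-5p at 76.5% of its pair with miR-30d. miR-29b, at 26.4% of its pair with miR-29c, was another. Whether reads were shared between miR-29a and miR-29c when they were assigned was not tested, so their values may not be separate measurements.

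**Figure D2:**
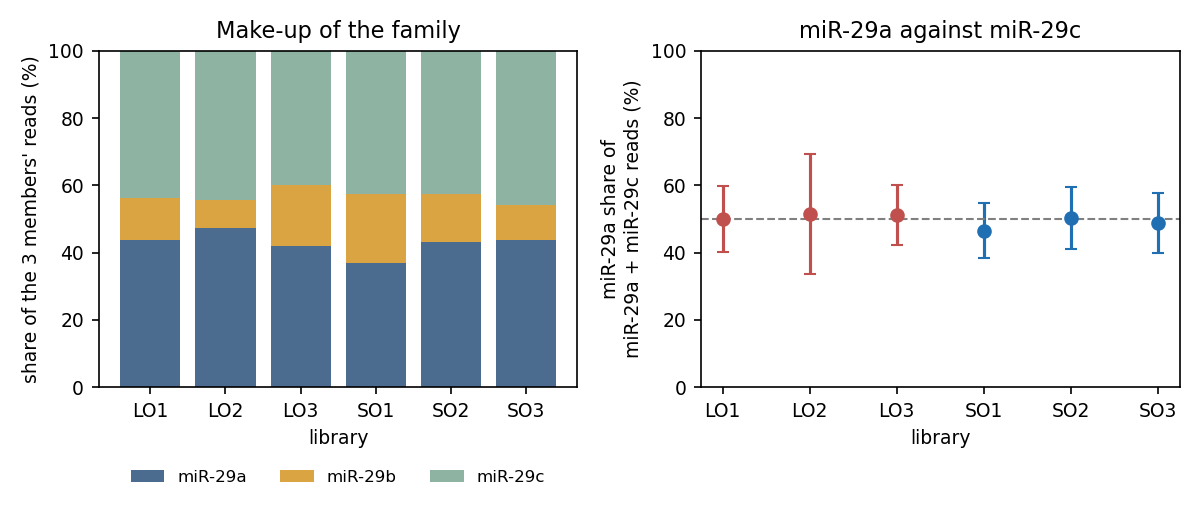
Left, share of the reads of the 3 members (%) held by each in every library; right, share of miR-29a among the reads of miR-29a and miR-29c (%), with 95% exact Clopper-Pearson intervals and a dashed line at an even split. The left bars show miR-29b as the smallest part throughout, from 8.33% in LO replicate 2 to 20.7% in SO replicate 1, and all right intervals cross the dashed line.

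The second comparison set LO against SO. The means of all 3 members were higher in LO, and none of the differences passed a false discovery rate (FDR) of 0.05. The mean of miR-29a was 59.8 ± 31.3 RPM in LO against 32.9 ± 4.76 RPM in SO (SD over 3 libraries each), and 8 of the 9 possible pairs of an LO with an SO library had the higher value in LO. Its log2 fold change on the log2(RPM + 1) scale was 0.73 (SE 0.57, 95% interval -0.39 to 1.85; limma, FDR 0.780 over 104 miRNAs). That of miR-29c was 58.4 ± 32.6 RPM in LO against 35.1 ± 7.61 RPM in SO, a log2 fold change of 0.60 (95% interval -0.52 to 1.72; limma FDR 0.780). That of miR-29b was 18.2 ± 10.8 against 12.9 ± 7.58 RPM, a log2 fold change of 0.40 (95% interval -0.91 to 1.71; limma FDR 0.820). Each interval includes both a decrease and a more than 2-fold increase, so neither a difference nor its absence was shown at this depth and number of libraries. These intervals rest on a spread pooled over the tested miRNAs of like level, not on each member's own.

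These differences are best read against the whole profile. By limma 0 of the 104 tested miRNAs passed FDR 0.05 (0%), and 4 (3.85%) had an unadjusted p under 0.05, none of them a miR-29. On the recovered reads edgeR's quasi-likelihood test called 2 (1.92%), with 13 (12.5%) at an unadjusted p under 0.05. DESeq2 called 0 of 242, with 9 (3.72%) at an unadjusted p under 0.05. No miR-29 was called or had an unadjusted p under 0.05 in either, and edgeR gave FDRs of 0.467 for miR-29a, 0.820 for miR-29b and 0.603 for miR-29c. A log2 fold change above 0 was found for 72 of the 104 miRNAs (69.2%), and the median over all 104 was 0.29. The 3 members had a median of 0.60, and all 3 lay above the median of the tested miRNAs, miR-29a by 0.44, miR-29c by 0.31 and miR-29b by 0.11.

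**Figure D3:**
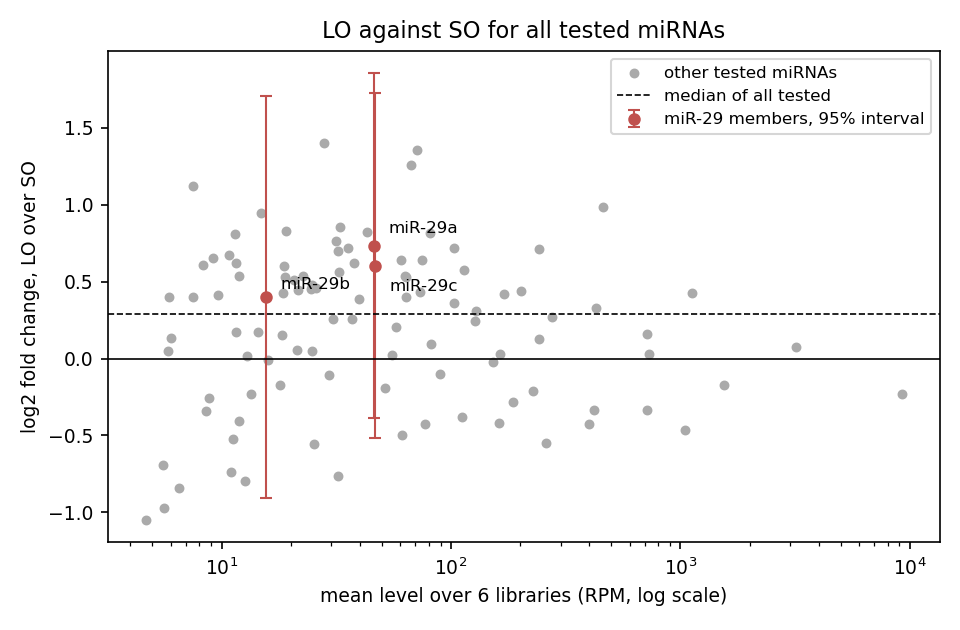
Log2 fold change of LO over SO (vertical axis) against mean level in RPM (horizontal axis, log scale) for the 104 tested miRNAs; red points are the miR-29 members with limma's 95% intervals, and the dashed line is the median of all tested miRNAs, 0.29. The 3 members lie above the dashed line and their intervals cross 0.

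The size of the difference was set largely by LO replicates 1 and 2. Without LO replicate 1 the log2 fold changes of miR-29a, miR-29b and miR-29c were 0.34, 0.00420 and 0.19, and the median of all tested miRNAs was -0.06. Without LO replicate 2, the shallowest library, they were 1.02, 0.97 and 0.90, with a median of 0.62, and miR-29a had the lowest FDR of the 3, 0.106 by limma. In that fit 18 of the 104 miRNAs passed FDR 0.05 and no member did. For miR-29b the log2 fold change was also 0.81 without SO replicate 1, 0.22 without LO replicate 3 and 0.06 without SO replicate 3. Relative to the median of all tested miRNAs, miR-29a stood at 0.40 without LO replicate 1 and 0.39 without LO replicate 2, but at 0.67 without LO replicate 3 and 0.51 without SO replicate 3. With DESeq2 it stood at 0.27, but there the median was over 242 miRNAs. With limma and DESeq2 size factors over the 104 it was 0.44. miR-29a lay above the median of the setting in each of the 18 settings tried, as did miR-29c. miR-29b lay above it in 16 of the 18 and below it without SO replicate 2 or SO replicate 3.

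**Figure D4:**
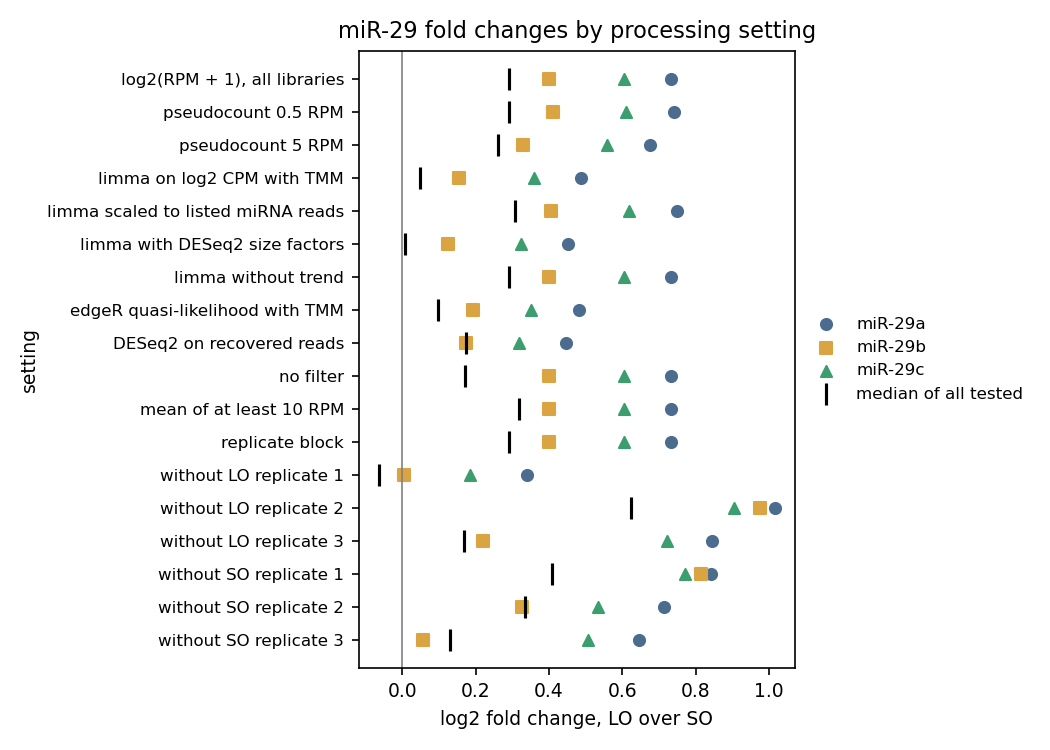
Log2 fold change of LO over SO (horizontal axis) for each member under the 18 settings (vertical axis); black ticks give the median of all tested miRNAs in that setting. All members lie at or right of 0 in every setting, and members and median move together when LO replicate 1 or LO replicate 2 is left out.

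The libraries differed in how much of the total was listed miRNA, from 1.68% in LO replicate 2 to 3.03% in LO replicate 1, so the members were also expressed as a share of listed miRNA reads. miR-29a held 0.315%, 0.219% and 0.157% of listed reads in the LO libraries by replicate number. In the SO libraries it held 0.132%, 0.136% and 0.124%. On this scale every LO library lay above every SO library. That order was found for 9 of the 104 tested miRNAs (8.65%), miR-29a included, and 16 (15.4%) had groups that did not overlap in either direction. The 95% counting interval of LO replicate 1, 0.237% to 0.410%, lay above the intervals of all 3 SO libraries, the highest of which ended at 0.174%. Those of LO replicate 2, 0.128% to 0.351%, and LO replicate 3, 0.122% to 0.200%, overlapped with SO intervals. The limma fit on this scaling gave miR-29a a log2 fold change of 0.75 and an FDR of 0.508.

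miR-29c held 0.315%, 0.206% and 0.150% of listed reads in LO and 0.152%, 0.133% and 0.130% in SO, so LO replicate 3 fell just below SO replicate 1 and the groups touched. miR-29b held 0.0916%, 0.0387% and 0.0682% in LO and 0.0742%, 0.0445% and 0.0294% in SO, and its groups overlapped. The family as a whole held 0.721%, 0.464% and 0.376% in LO and 0.359%, 0.314% and 0.283% in SO. The summed level was 136 ± 73.4 RPM in LO against 80.9 ± 19.9 RPM in SO (SD over 3 libraries each), a 1.69-fold difference of means given as a description, with LO replicate 2 at 78.0 RPM below SO replicate 1 at 103 RPM. On the log2 scale that difference of means was 0.75, and it was 0.23 without LO replicate 1 and 1.03 without LO replicate 2. In such bulk libraries fewer cells with a miRNA and less of it per cell cannot be told apart.

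**Figure D5:**
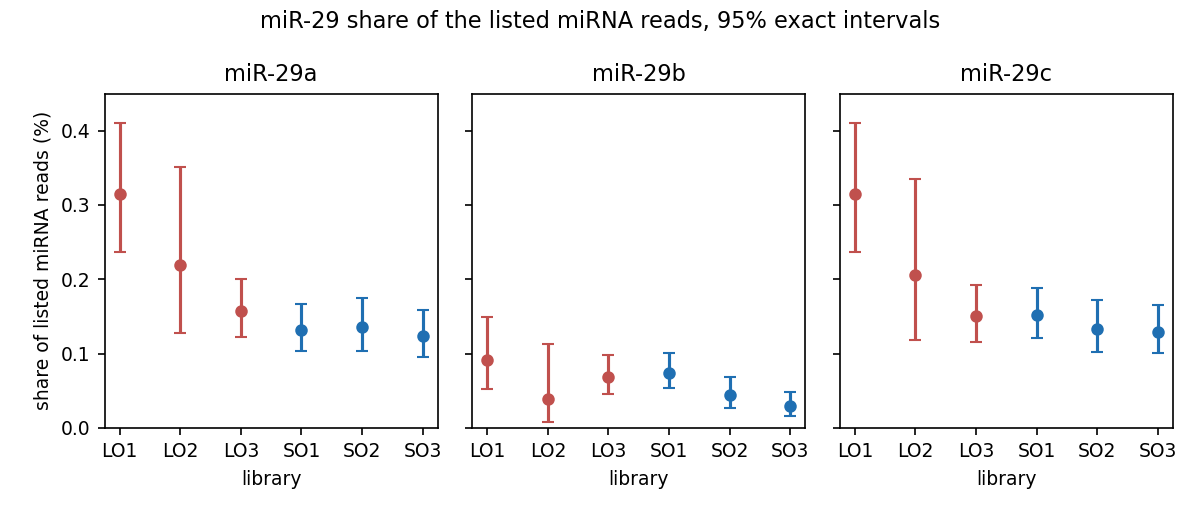
Share of listed miRNA reads (%) held by each member in the 6 libraries, with 95% exact Clopper-Pearson intervals that cover counting error only; red marks LO and blue SO. The 3 LO points of miR-29a lie above the 3 SO points, from 0.157% upward against 0.136% at most, while those of miR-29b and miR-29c overlap between groups.

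No difference in the make-up of the family was detected between the groups. miR-29a took 44.2% ± 2.72 of the family's reads in LO and 41.3% ± 3.84 in SO, miR-29c 42.7% ± 2.37 and 43.6% ± 1.93, and miR-29b 13.1% ± 4.91 and 15.1% ± 5.21 (SD, n = 3 each). The log2 ratio of miR-29a to miR-29c differed between LO and SO by 0.13 (exact two-sided permutation p = 0.2, adjusted over 3 ratios 0.6), that of miR-29a to miR-29b by 0.27 (exact permutation p = 0.6, adjusted 0.7) and that of miR-29c to miR-29b by 0.14 (exact permutation p = 0.7, adjusted 0.7). With 3 libraries against 3 the smallest p possible is 0.1. The differences in the ratios to miR-29b turned to -0.00926 and -0.123 without LO replicate 2, and to -0.0544 and -0.126 without SO replicate 1.

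Similarity of pattern over the 6 libraries was described by Pearson's r of log2(RPM + 1), and the libraries share their scaling, so most miRNAs rise and fall together (median r with the other tested miRNAs 0.71 for miR-29a, 0.75 for miR-29b and 0.75 for miR-29c). miR-29c was nearest to miR-29a (r = 0.99), followed by miR-184 (r = 0.98) and let-7c (r = 0.96). Besides miR-29a, those nearest to miR-29c were miR-143-3p, a miRNA of smooth muscle and stroma (r = 0.95), and miR-98, of the let-7 family (r = 0.95). Nearest to miR-29b were miR-26a (r = 0.98), miR-16 (r = 0.97) and miR-30e-5p (r = 0.97). miR-29c ranked only 38 of 103 by likeness to miR-29b, with r = 0.81, and miR-29a 49, with r = 0.76. The order depended on the scaling. Scaled to listed miRNA reads, miR-184 was nearest to miR-29a (r = 0.984), just ahead of miR-29c (r = 0.981), and miR-143-3p (r = 0.952) came in place of let-7c. On that scale miR-29a, miR-143-3p (r = 0.958) and miR-184 (r = 0.942) were nearest to miR-29c. For miR-29b all 3 nearest names were other ones, miR-27b-3p (r = 0.93), miR-32 (r = 0.93) and miR-21 (r = 0.92), and its r was 0.56 with miR-29c and 0.48 with miR-29a. miR-184 and miR-29a were both highest in LO replicate 1, where miR-184 stood at 186 RPM against 75.1 RPM at most elsewhere.

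Other miRNAs reported to repress DNA methyltransferases or TET enzymes lay on both sides of 0. Of a list of 11 such names 10 were tested, 7 with higher and 3 with lower means in LO, 0 passed FDR 0.05 by limma and 1 had an unadjusted p under 0.05. Of all 104 tested miRNAs 72 (69.2%) were higher in LO, 0 passed FDR 0.05 and 4 (3.85%) had an unadjusted limma p under 0.05. The median log2 fold change of the list was 0.34 beside 0.29 for all tested miRNAs. The 1 listed name with an unadjusted p under 0.05 was miR-152, a repressor of DNMT1, with 96.6 ± 48.7 RPM in LO against 37.9 ± 14.3 RPM in SO (log2 fold change 1.26, limma FDR 0.763). miR-148a-3p, which shares its seed and was far more abundant than any miR-29, stood at 1437 ± 295 and 1648 ± 539 RPM (log2 fold change -0.17). miR-101, known for repressing the histone methyltransferase EZH2, had a log2 fold change of -0.42 and miR-185 one of -0.97, the latter with 0 reads in LO replicate 2. miR-143-3p, miR-342, miR-148b-3p, miR-126-3p, miR-26a and miR-22-3p had log2 fold changes between 0.13 for miR-22-3p and 0.85 for miR-143-3p. miR-130a had too few reads to test, with 36 in all.

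miR-29 miRNAs are found in many cell types, so markers of cells that surround the oocyte are given beside these values, as shares of listed reads. The 6 granulosa and cumulus names, of which miR-21 and miR-31 had enough reads to test, ran up to 2.94% in LO, where the lowest library had 1.496%, and from 1.22% to 1.79% in SO. They were highest in LO replicate 1, as were all 3 members and the gonadal and germ cell names given below. Their lowest LO library was LO replicate 2, at 1.496% against 1.98% in LO replicate 3. For miR-29a the order of these 2 libraries was reversed, at 0.219% and 0.157%, as it was for miR-29c, at 0.206% and 0.150%. For miR-29b the order was that of the granulosa and cumulus names, at 0.0387% and 0.0682%. miR-212, miR-224 and miR-383 had at most 2 reads each in all. Both tested names had higher means in LO, miR-31 with a log2 fold change of 0.71 and miR-21 with 0.13, beside a median of 0.29 for all tested miRNAs. miR-31 held on average 1.16% of listed reads in LO and 0.694% in SO, and every LO library lay above every SO library. That order was found for 9 of the 104 tested miRNAs (8.65%), miR-29a among them but not miR-21. In RPM miR-21 was lower in LO replicate 2, at 102, than in every SO library. Of the names with too few reads to test, miR-132, miR-212 and miR-383 had lower means in LO and miR-224 a higher one, each on 10 reads or fewer. In no library were they above the floor of 3 reads, so no direction is read from them. The 7 theca, stroma and smooth muscle names, 3 of them tested, ran from 0.252% to 0.438% in LO and from 0.188% to 0.344% in SO, with miR-214 at 0 in every library. The 2 endothelial names stayed at or below 0.0645%, and the 3 erythroid names at or below 0.0258%. The 4 muscle names, with 59 reads in all, ran from 0.0329% to 0.0774% in LO and from 0.0157% to 0.0222% in SO, so that the groups did not overlap, and miR-133b was at 0 in every library. None of the 4 had enough reads to test. Among single tested miRNAs, 16 of 104 (15.4%) had groups that did not overlap on this scale, 9 (8.65%) with LO higher. The 4 leukocyte names analysed stood at 0.203% in SO replicate 1 and at most 0.0630% elsewhere, and the liver miRNA miR-122 at most at 0.0903%. The gonadal and germ cell names miR-202-3p, miR-202-5p and miR-34c had reads in every library, together at 0.571% to 0.968%, and were highest in LO replicate 1. miR-143-3p and miR-126-3p stand both in these marker lists and in the list of DNA methylation miRNAs. The part of other cells in the miR-29 values was not tested.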

How the data were processed

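The deposited tables give 1 value for each of 326 mature pig miRNAs and library. Per the file headers the unit is TPM. Within a library, though, all values were whole multiples of the same step at any sequence length, so they were taken as RPM of a total set by the authors. Reads recovered from the step were whole for 100% of values above 0 (tolerance 0.02 read). The totals were 461505 to 1424130 reads in LO and 1915218 to 2187987 in SO, of which 7755 to 42541 and 44964 to 55230 were listed miRNA reads. Every LO library was thus shallower than every SO library, so depth and group cannot be told apart. A floor of 3 reads equals 6.50 RPM in the shallowest library and 1.37 RPM in the deepest. Intervals and floors cover counting error only. Per the labels' protocols, RNA was isolated with mirVana and libraries made with the QIAseq miRNA Library Kit. Use of its molecular identifiers is not stated. The tools bcl2fastq, cutadapt, edgeR and Bowtie2 2.2.2, and the genome build Sscrofa10.2, appear in the submitters' processing notes without their roles. The RefSeq gene table is of Sscrofa11.1, so it gave names and neighbours only.

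Groups and replicate numbers came from the titles. LO and SO were compared with limma 3.58.1 (intensity trend, group only, R 4.3.3) on log2(RPM + 1) over the 104 miRNAs passing filterByExpr, with Benjamini-Hochberg adjustment; this scale understates changes of low miRNAs. edgeR 4.0.16 and DESeq2 1.42.0 on recovered reads, other scalings, pseudocounts and filters, and leaving out each library were alternatives. The limma and edgeR steps were tested on simulated data with changes far larger than those of miR-29. That test does not show how well differences of the size seen here would be found. p-values refer to the spread between these libraries. In limma that spread was pooled over the tested miRNAs of like level. Its SEs, intervals and FDRs therefore do not measure a member's own spread. The pooling treats the tested miRNAs as independent, although most rise and fall together. Ratios were tested by exact permutation (scipy 1.17.1). Named miRNAs were the members, names sharing their sequence, the 3 nearest patterns, neighbours in level, the list of DNA methylation miRNAs and cell markers. Members and lists were chosen with earlier results of these data known.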

Additional observations from a re-analysis of the deposited data

How the results depend on the processing

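miR-29a, miR-29b and miR-29c kept a higher mean in LO, with no call, in all 17 alternatives each, at log2 fold changes of 0.34 to 1.02, 0.00420 to 0.97 and 0.19 to 0.90 and FDRs of 0.106 to 0.992, 0.196 to 0.998 and 0.150 to 0.992. With TMM they were 0.49, 0.15 and 0.36, and the median of all tested miRNAs was 0.05, with 52.9% higher in LO against 69.2% on the deposited scaling; with DESeq2 size factors they were 0.45, 0.12 and 0.32 beside a median of 0.01, with an equal number higher and lower. The number of miRNAs past FDR 0.05 was 2 with edgeR and ran from 0 to 18 when single libraries were left out; 18 was reached without LO replicate 2.

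Leaving out 1 library, the log2 ratio of miR-29a to miR-29b within libraries ran from 1.48 to 1.78 and that of miR-29c to miR-29b from 1.51 to 1.76, and neither could pass the threshold, since 5 libraries allow no exact p below 0.0625 (adjusted 0.0938). That of miR-29a to miR-29c ran from -0.0357 to 0.0215, positive without SO replicate 1. The LO against SO difference in the ratio of miR-29a to miR-29b ran from -0.0544 to 0.555 and of miR-29c to miR-29b from -0.126 to 0.431; both were negative without LO replicate 2 (-0.00926 and -0.123) or SO replicate 1 (-0.0544 and -0.126). The cause was not tested.

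With the replicate number as a block the log2 fold changes stayed 0.73, 0.40 and 0.60 (limma FDR 0.853, 0.861 and 0.853), and the count of calls was 0. Deviations from the group mean correlated at -0.34, -0.22 and 0.08 between libraries numbered 1 to 3, and LO replicate 1 correlated best with SO replicate 2. In each group the deviations of the 3 libraries sum to 0, so these values are tied to each other. They cannot show whether same-numbered libraries were collected or processed together. Depth limits miR-29b most, with 3 reads in LO replicate 2, where its share of listed reads has a 95% interval of 0.00798% to 0.113%.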
